A study of Mus musculus with 13 samples.

Results

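Cholesterol and fatty acids are built from the same precursor, acetyl-CoA, by enzymes of 2 branches that share their regulators, and the 33 genes described here encode most of these enzymes and regulators. The members were taken by gene symbol: 7 of the mevalonate steps, 10 of the steps from squalene to cholesterol, 5 regulators, 3 enzymes of fatty acid synthesis, 4 desaturases and 4 elongases. Of the 33, 32 were found among 19938 named genes on Affymetrix Mouse Gene 1.0 ST arrays, and the same 32 among 18194 on Affymetrix 430 2.0 arrays. Acat2, an acetyl-CoA acetyltransferase of the mevalonate branch, was not analysed here. All 32 passed the filter on low genes on both array types.

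In the mevalonate steps acetyl-CoA becomes farnesyl diphosphate, which is joined to squalene, closed to lanosterol and trimmed to cholesterol. Fatty acid synthase makes palmitate, and elongases and desaturases lengthen it and add double bonds. Transcription of both branches is driven by the factors SREBP1 and SREBP2, encoded by Srebf1 and Srebf2. Their escort Scap carries them out of the endoplasmic reticulum when sterol is scarce, and the Insig proteins retain them there when it is plentiful. Dividing lymphocytes use these lipids to build membranes.

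All 13 arrays came from the mouse pre-B line B3 after transduction with MSCV retroviruses whose inserts were followed by an IRES and GFP. Ikaros, the product of Ikzf1, is a transcriptional regulator of lymphoid development that binds DNA through zinc fingers, and it carried a haemagglutinin (HA) tag. On Gene 1.0 ST arrays, cells with HA-Ikaros-ERt2-IRES-GFP, in which Ikaros is joined to the hormone-binding domain of the estrogen receptor, were taken at 2 h and at 6 h of exposure to 4-hydroxytamoxifen, and cells with ERt2-IRES-GFP, called vector-ERt2 cells, at 6 h (3 arrays for each group). On 430 2.0 arrays, cells with HA-Ikaros-IRES-GFP (2 arrays) were set against cells with HA-159A Ikaros-IRES-GFP, a mutant deficient in DNA binding (2 arrays), 48 h after infection. All groups therefore came from 1 line carrying an introduced construct, and every Gene 1.0 ST group had been exposed to 4-hydroxytamoxifen. Vector-ERt2 cells at 2 h and Ikaros-ERt2 cells without 4-hydroxytamoxifen were not among the arrays, so a difference in exposure time (at 2 h) or between the lines before exposure cannot be told apart from a response.

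The deposited values are log2 signals, and 1 probe set, that with the highest mean, stood for each gene. Signals of different probe sets are not on a common scale, so levels of members were compared within a gene only. The low-gene filter and the percentiles of cell type markers rank mean signals across genes and are a rough guide. Log2 changes are given with their standard errors from limma, and a gene is called where limma's Benjamini-Hochberg adjusted p over all genes tested is under 0.05. On Gene 1.0 ST arrays Ikzf1 averaged 13.28 and 13.26 on the 2 h and 6 h arrays of the Ikaros-ERt2 line and 9.27 on those of the vector-ERt2 line. In one label field vector-ERt2 replicate 1 is given as inducible Ikaros, against its title; its Ikzf1 signal was 9.16, beside 9.25 and 9.39 on the other vector-ERt2 arrays. On 430 2.0 arrays the Ikzf1 probe set of highest mean averaged 12.04 in Ikaros cells and 11.71 in 159A cells (not called). A second one differed, at 4.44 in Ikaros cells against 12.78 for 159A (limma adjusted p = 0.0229 when every probe set was tested). Of the defining pre-B genes, 8 of 11 passed the low-gene filter on Gene 1.0 ST arrays, where Cd22, Rag1 and Rag2 did not, and 10 of 10 passed it on 430 2.0 arrays, with a median at the 91.2 percentile of Gene 1.0 ST genes and the 91.3 percentile of 430 2.0 genes. The filter leaves out only the lowest 40% of genes by mean, so passing it does not by itself show expression. Of other cell types' markers, those that passed it on Gene 1.0 ST arrays were 1 of 5 of T cells (Cd3e), 0 of 6 of myeloid cells and 1 of 2 of erythroid cells (Epor). So did 4 of 5 of fibroblasts (Col1a1, Col1a2, Col3a1 and Thy1), 1 of 3 of hepatocytes (Apoa1) and 1 of 3 of adipocytes (Plin1). On 430 2.0 arrays those that passed were 2 of 5 of T cells (Cd4, Cd8a), 2 of 6 of myeloid cells (Lyz2, Elane) and 1 of 3 of erythroid cells (Klf1). Of the 5, 3 and 2 markers of fibroblasts, hepatocytes and adipocytes 0 passed. With bulk RNA, fewer cells that express a gene and less of its RNA per cell cannot be told apart.

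Upstream sequences are shown for the 3 members called at 6 h over vector-ERt2 cells, since their changes there are the best matched for exposure. Each is the 250 bases before a RefSeq transcript start on GRCm38.p6, plus strand, from 5′ to 3′, and capitals mark matches to the motifs searched on both strands: TCACNCCAC (a core of the sterol regulatory element bound by SREBP), CACGTG (E-box), CCAAT (NF-Y box), GGGCGG (GC box) and TGGGAA (a core letter run of Ikaros sites).
Hmgcs1, chr13:119690101-119690350: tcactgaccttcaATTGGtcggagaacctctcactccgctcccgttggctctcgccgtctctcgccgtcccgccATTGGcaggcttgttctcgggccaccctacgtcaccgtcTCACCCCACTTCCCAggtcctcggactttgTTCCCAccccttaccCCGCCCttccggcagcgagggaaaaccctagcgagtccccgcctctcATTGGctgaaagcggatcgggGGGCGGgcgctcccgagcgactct
Elovl7, chr13:108214154-108214403: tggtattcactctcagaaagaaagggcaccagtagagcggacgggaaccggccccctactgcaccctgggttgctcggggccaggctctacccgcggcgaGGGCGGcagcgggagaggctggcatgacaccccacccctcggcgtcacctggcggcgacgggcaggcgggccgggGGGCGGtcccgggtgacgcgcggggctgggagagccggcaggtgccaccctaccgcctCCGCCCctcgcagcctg
Elovl6, chr3:129532136-129532385: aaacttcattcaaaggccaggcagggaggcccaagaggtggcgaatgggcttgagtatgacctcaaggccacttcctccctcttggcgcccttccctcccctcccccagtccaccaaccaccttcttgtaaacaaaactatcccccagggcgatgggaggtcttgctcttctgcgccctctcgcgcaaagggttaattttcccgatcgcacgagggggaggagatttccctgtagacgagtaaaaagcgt
The Hmgcs1 window held TCACCCCAC at 137 to 129 bases before the start, next to TTCCCA at 128 to 123, which is TGGGAA on the other strand. A further TTCCCA lay at 107 to 102 bases, and there were 3 CCAAT matches, read as ATTGG on the strand shown, and 2 GC boxes. Elovl7's window, which ends at an inner transcript start of that gene, held 3 GC boxes and none of the other motifs, and in the Elovl6 window these letters were not found.

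Promoter windows were available for 27 of the 33 members (36 windows). The NF-Y box stood in 21 of the 36 (58.3%), against 33.8% of all 32851 windows, and in 13 of 17 windows of sterol pathway genes against 3 of 9 of fatty acid genes. GC boxes stood in 26 of 36 (72.2%, against 32.7% of all) and the E-box in 6 of 36 (16.7%, against 6.02%). The core sterol element stood in 1 of 36, that of Hmgcs1 (2.78%, against 1.05%). TGGGAA stood in 10 of 36 (27.8%, against 21.6%), among them windows of Acaca, Fads2, Mvk, Nsdhl, Sc5d, Scap and Srebf1. A match is a run of letters in a window and not evidence of binding, and no match says only that the letters are not there.

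After 2 h of 4-hydroxytamoxifen, 28 of the 32 members had a log2 change below 0 in Ikaros-ERt2 cells over vector-ERt2 cells, where 52.8% of all 11963 genes did. Their median log2 change was -0.19, beside -0.01 for all genes. A single member was called: Scd1, a stearoyl-CoA desaturase that makes monounsaturated fatty acids, fell, and 0 rose (background 1.10% of all genes lower and 0.769% higher). At an unadjusted p under 0.05, 14 of 32 were lower (background 7.23%) and 1, Elovl7, was higher (background 6.90%). For 14 of 32 all 3 Ikaros-ERt2 arrays lay below all 3 vector-ERt2 arrays, which held for 9.40% of all genes.

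**Figure D1:**
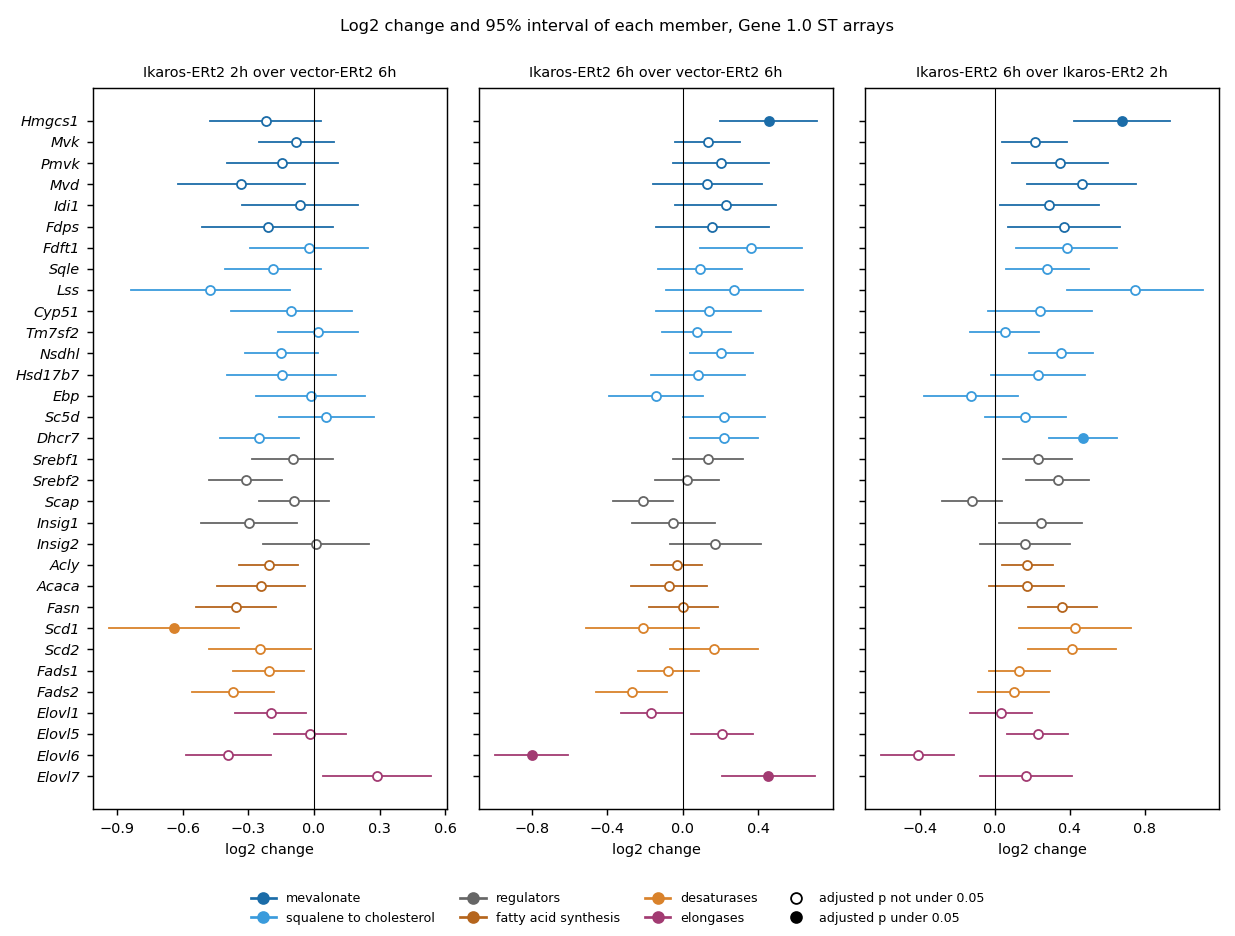
Log2 change (horizontal axis) of each of the 32 members on Gene 1.0 ST arrays in the 3 comparisons, with 95% intervals; members run down the page by role and filled points are called. At 2 h over vector-ERt2 cells 28 points lie below 0, at 6 h over vector-ERt2 cells 22 lie above 0, and at 6 h over 2 h 29 lie above 0.

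Among the desaturases, Scd1 read 10.36, 10.51 and 10.88 in Ikaros-ERt2 cells at 2 h, against 11.16, 11.34 and 11.17 in vector-ERt2 cells. The groups did not overlap, and Scd1 was 1.56-fold lower (log2 change -0.64 ± 0.14, limma adjusted p = 0.0409). Fads2, a desaturase of polyunsaturated fatty acids, read 9.88, 10.07 and 10.09 at 2 h, against 10.42, 10.43 and 10.31 in vector-ERt2 cells, with a log2 change of -0.37 ± 0.09 short of a call (limma adjusted p = 0.0556). Fads1 (log2 change -0.21) and Scd2 (-0.25) had changes on the same side of 0, so that all 4 desaturases were below it. The call of Scd1 held without Ikaros-ERt2 2 h replicate 3 or Ikaros-ERt2 6 h replicate 2 and was lost without any 1 of the other 7 arrays, where Scd1's log2 change was -0.67 to -0.53 and its adjusted p 0.0507 to 0.177.

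All 3 enzymes of palmitate synthesis had an unadjusted p under 0.05 at 2 h, and none of them was called. Fasn, fatty acid synthase, read 9.75, 9.61 and 9.87 in Ikaros-ERt2 cells, against 10.11, 10.13 and 10.06 in vector-ERt2 cells (log2 change -0.36 ± 0.08, limma adjusted p = 0.0611). Acly, the ATP citrate lyase that supplies acetyl-CoA, read 9.87, 9.85 and 9.89, against 10.05, 10.05 and 10.12 (log2 change -0.21, limma adjusted p = 0.135). In both genes every Ikaros-ERt2 array lay below every vector-ERt2 array. Acaca, acetyl-CoA carboxylase, had a log2 change of -0.24.

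The elongases split at 2 h. Elovl6, which lengthens palmitate to stearate, read 8.96, 8.78 and 8.95 in Ikaros-ERt2 cells, against 9.43, 9.28 and 9.15 in vector-ERt2 cells (log2 change -0.39 ± 0.09, limma adjusted p = 0.0527). Elovl1, an elongase of very long saturated chains, read 8.94, 9.11 and 9.15, against 9.28, 9.20 and 9.31 (log2 change -0.20, limma adjusted p = 0.249). Elovl7, another elongase of long chains, lay the other way, with every Ikaros-ERt2 array above every vector-ERt2 array (log2 change 0.29, limma adjusted p = 0.270), and Elovl5, an elongase of polyunsaturated chains, had a log2 change of -0.02.

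On the sterol side at 2 h, 0 of 16 enzymes were called by limma, and 14 of them had a change below 0. In the mevalonate steps all 6 were below 0 (log2 change -0.33 to -0.06). Mvd, the decarboxylase of mevalonate diphosphate, read 7.98, 8.44 and 8.15 in Ikaros-ERt2 cells, against 8.62, 8.40 and 8.54 in vector-ERt2 cells (log2 change -0.33), and the groups overlapped. Of the 10 enzymes from squalene to cholesterol, Lss, the cyclase that forms lanosterol, had the lowest change: it read 7.97, 8.37 and 8.61, against 8.80, 8.83 and 8.74 (log2 change -0.48, limma adjusted p = 0.210). Dhcr7, the reductase of the last step to cholesterol, read 8.61, 8.71 and 8.83, against 8.94, 8.89 and 9.06 (log2 change -0.25, limma adjusted p = 0.178). In Lss and Dhcr7 the 3 Ikaros-ERt2 arrays lay below the 3 vector-ERt2 arrays.

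Among the regulators, Srebf2, the SREBP gene linked most closely to sterol synthesis, read 9.75, 9.90 and 9.98 in Ikaros-ERt2 cells at 2 h, against 10.17, 10.15 and 10.25 in vector-ERt2 cells. Its log2 change was -0.31 ± 0.08 and was not called (limma adjusted p = 0.0700). Insig1, itself an SREBP target gene, read 10.35, 10.32 and 10.62, against 10.82, 10.68 and 10.66 (log2 change -0.30, limma adjusted p = 0.194). The groups did not overlap in either gene. Srebf1, Scap and Insig2 had log2 changes of -0.10, -0.09 and 0.01.

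At 6 h, with both lines exposed for the same time, sterol enzymes mostly had changes above 0 and fatty acid enzymes lay on both sides of it. In Ikaros-ERt2 cells over vector-ERt2 cells, all 6 mevalonate enzymes and 9 of 10 enzymes from squalene to cholesterol had a change above 0, while the palmitate enzymes and desaturases had 2 of 7 above 0. Over all members, 22 of 32 were above 0 (49.9% of all genes) with a median log2 change of 0.13, beside 0.00 for all genes. Hmgcs1 and Elovl7 rose (background 2.58% of all genes higher) and Elovl6 fell (background 3.20% lower). At an unadjusted p under 0.05, 7 were higher (background 9.04%) and 4 lower (background 8.77%). For 7 of 32 every Ikaros-ERt2 array lay above every vector-ERt2 array, and for 5 of 32 every one lay below, against 11.0% and 10.3% of all genes. The comparisons at 2 h and at 6 h share the vector-ERt2 arrays.

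Hmgcs1, the HMG-CoA synthase that opens the mevalonate route, read 11.10, 11.45 and 11.29 in Ikaros-ERt2 cells at 6 h, against 10.95, 10.79 and 10.73 in vector-ERt2 cells. The groups did not overlap, and Hmgcs1 was 1.37-fold higher (log2 change 0.46 ± 0.12, limma adjusted p = 0.0435). The other mevalonate enzymes, Mvk, Pmvk, Mvd, Idi1 and Fdps, had log2 changes of 0.13 to 0.23. The call of Hmgcs1 was lost without Ikaros-ERt2 2 h replicate 1 (adjusted p = 0.0668), Ikaros-ERt2 6 h replicate 2 (0.126) or 3 (0.0937), or vector-ERt2 replicate 1 (0.0749), 2 (0.140) or 3 (0.159), with a log2 change of 0.37 to 0.52.

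From squalene on, 0 of 10 genes were called at 6 h over vector-ERt2 cells by limma, and 4 were higher at an unadjusted p under 0.05. Fdft1, squalene synthase, read 9.31, 9.72 and 9.63 in Ikaros-ERt2 cells, against 9.32, 9.12 and 9.14 in vector-ERt2 cells (log2 change 0.36 ± 0.12, limma adjusted p = 0.127). Its second probe set had a change of 0.43 and was called when every probe set was tested (limma adjusted p = 0.0396). Dhcr7 read 9.17, 9.28 and 9.11, against 8.94, 8.89 and 9.06 (log2 change 0.22, limma adjusted p = 0.168). Ebp, a sterol isomerase, was the enzyme below 0 (log2 change -0.14).

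**Figure D2:**
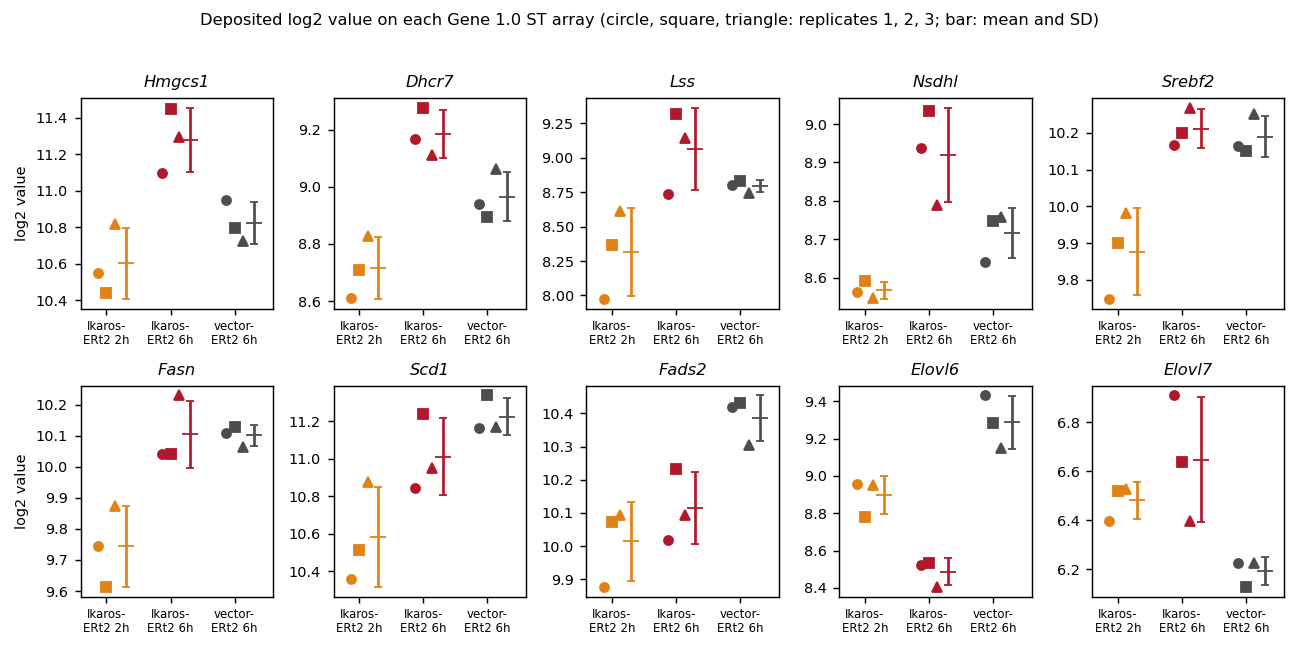
Deposited log2 signal (vertical axis, its own range for each gene) of 10 members on the 9 Gene 1.0 ST arrays, with the mean and SD of each group of 3 beside the points. Elovl6 is lowest on the 3 arrays at 6 h, Hmgcs1 and Dhcr7 are highest on those arrays, and Scd1, Fasn and Srebf2 have their lowest mean at 2 h.

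Elovl6 read 8.52, 8.53 and 8.40 in Ikaros-ERt2 cells at 6 h, against 9.43, 9.28 and 9.15 in vector-ERt2 cells. It was 1.74-fold lower (log2 change -0.80 ± 0.09, limma adjusted p = 6.6e-04), the groups stood well apart, and the gene was called in all 17 alternative fits, those without each array included. Elovl7 read 6.91, 6.64 and 6.40, against 6.23, 6.13 and 6.23, and was 1.37-fold higher (log2 change 0.45 ± 0.11, limma adjusted p = 0.0383). The Elovl7 call held without Ikaros-ERt2 6 h replicate 3 and was lost without any 1 of the other 8 arrays, with a log2 change of 0.32 to 0.47 and an adjusted p of 0.0545 to 0.139. Elovl5 (log2 change 0.21) and Elovl1 (-0.17) were not called, and in each the groups did not overlap.

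Of the other fatty acid genes at 6 h, none was called. Fads2 read 10.02, 10.23 and 10.09 in Ikaros-ERt2 cells, against 10.42, 10.43 and 10.31 in vector-ERt2 cells (log2 change -0.27 ± 0.09, limma adjusted p = 0.0983). Scd1, called at 2 h, read 10.84, 11.24 and 10.95 at 6 h, against 11.16, 11.34 and 11.17 (log2 change -0.21, limma adjusted p = 0.496), and here the groups overlapped. Acaca read 8.91, 8.93 and 8.91, against 9.06, 9.01 and 8.91 (log2 change -0.07), and Acly and Fasn had log2 changes of -0.03 and 0.00. Among the regulators, Scap read 9.31, 9.20 and 9.09, against 9.37, 9.40 and 9.46 (log2 change -0.21, limma adjusted p = 0.129). Srebf1 read 8.98, 9.16 and 9.08, against 8.85, 8.93 and 9.05 (log2 change 0.13), and Srebf2 had a log2 change of 0.02.

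Within the Ikaros-ERt2 line, 29 of 32 members were higher at 6 h than at 2 h, where 53.0% of all genes were, with a median log2 change of 0.24 beside 0.01 for all genes. Hmgcs1 and Dhcr7 rose (background 0.376% of all genes higher), and 0 members fell by limma (background 0.527%), Elovl6 being the one lower at an unadjusted p under 0.05 (background 6.86%). At that unadjusted level 19 of 32 were higher (background 6.75%), all 6 mevalonate enzymes among them, and for 14 of 32 every 6 h array lay above every 2 h array (7.90% of all genes). This contrast shares its arrays with the comparisons above and is the difference between their changes. The vector-ERt2 line was measured at 6 h alone, so passage of time in culture cannot be told apart from Ikaros action.

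Hmgcs1 read 11.10, 11.45 and 11.29 at 6 h, against 10.55, 10.44 and 10.82 at 2 h. It was 1.60-fold higher (log2 change 0.68 ± 0.12, limma adjusted p = 0.0282). Dhcr7 read 9.17, 9.28 and 9.11 at 6 h, against 8.61, 8.71 and 8.83 at 2 h, a 1.38-fold rise (log2 change 0.47 ± 0.08, limma adjusted p = 0.0294). Both genes had every 6 h array above every 2 h array. The Hmgcs1 call held without Ikaros-ERt2 2 h replicate 3 or 6 h replicate 1 and was lost without any 1 of the other 7 arrays (log2 change 0.59 to 0.68, adjusted p 0.0514 to 0.153), and the Dhcr7 call held without vector-ERt2 replicate 3 and was lost without any of the other 8 (log2 change 0.42 to 0.53, adjusted p 0.0515 to 0.160).

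Further members had changes between the times that were not called. Lss read 8.73, 9.32 and 9.14 at 6 h, against 7.97, 8.37 and 8.61 at 2 h (log2 change 0.75 ± 0.17, limma adjusted p = 0.0697). Srebf2 read 10.17, 10.20 and 10.27, against 9.75, 9.90 and 9.98 (log2 change 0.34, limma adjusted p = 0.0779), and Srebf1 read 8.98, 9.16 and 9.08, against 8.73, 8.95 and 8.85 (log2 change 0.23). Both SREBP genes were thus higher on all 6 h arrays than on any 2 h array. Fasn read 10.04, 10.04 and 10.23, against 9.75, 9.61 and 9.87 (log2 change 0.36, limma adjusted p = 0.0822), and Acly 10.00, 10.06 and 10.06, against 9.87, 9.85 and 9.89 (log2 change 0.17).

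Of the desaturases, Scd2 read 12.33, 12.44 and 12.57 at 6 h, against 11.88, 11.94 and 12.27 at 2 h (log2 change 0.41, limma adjusted p = 0.110). Scd1 read 10.84, 11.24 and 10.95, against 10.36, 10.51 and 10.88 (log2 change 0.43, limma adjusted p = 0.181). Elovl5 read 9.98 on all 3 arrays at 6 h, against 9.82, 9.62 and 9.82 at 2 h (log2 change 0.23, limma adjusted p = 0.195). Elovl6 went against the other members, with 8.52, 8.53 and 8.40 at 6 h, against 8.96, 8.78 and 8.95 at 2 h (log2 change -0.41 ± 0.09, limma adjusted p = 0.0647). The other members below 0 were Ebp (-0.13) and Scap (-0.12).

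Ikaros-ERt2 6 h replicate 2 held the highest of the 9 values for 13 of 16 sterol enzymes, where 14.9% of all genes had their highest value, and Ikaros-ERt2 2 h replicate 1 the lowest for 11 of 16 (9.41% of all genes). Set against the mean of the vector-ERt2 arrays, the median difference of the 16 was -0.23, -0.10 and -0.05 on the 2 h arrays, 0.01, 0.34 and 0.12 on the 6 h arrays and 0.08, -0.03 and -0.05 on the vector-ERt2 arrays, so that the 6 h and vector-ERt2 arrays overlapped. For the 11 fatty acid genes it was -0.32, -0.31 and -0.12 at 2 h, -0.07, -0.06 and -0.08 at 6 h and 0.02, 0.01 and -0.04 in vector-ERt2 cells. The 3 groups did not overlap, but the nearest 6 h and vector-ERt2 arrays were close, at -0.06 and -0.04. Vector-ERt2 arrays lie near 0 by construction, being set against their own mean. Without Ikaros-ERt2 6 h replicate 2, 19 of 32 members were above 0 at 6 h over vector-ERt2 cells (median log2 change 0.05), and 29 of 32 at 6 h over 2 h; without vector-ERt2 replicate 2 the first median was 0.08. Without Ikaros-ERt2 2 h replicate 1, 27 of 32 were below 0 at 2 h over vector-ERt2 cells. These 2 arrays were picked out after their values were seen.

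**Figure D3:**
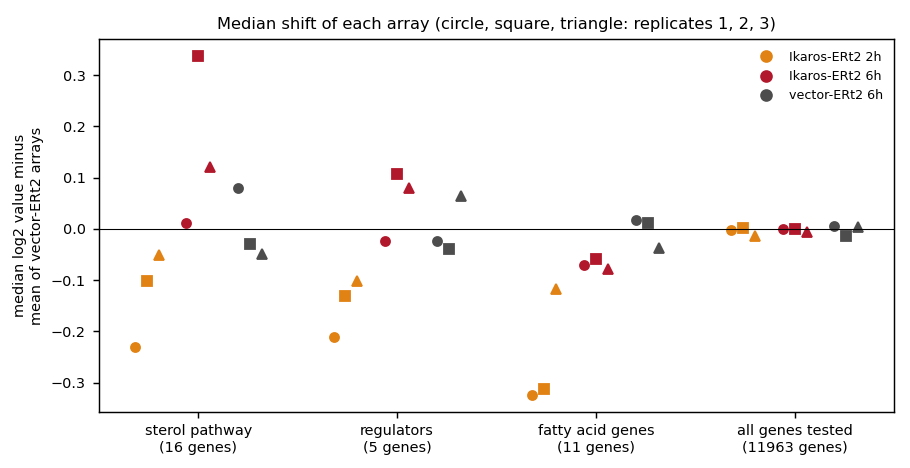
Median over the genes of a set of each array's log2 signal minus the mean of the vector-ERt2 arrays (vertical axis), for 16 sterol enzymes, 5 regulators, 11 fatty acid genes and all 11963 genes tested; each point is 1 Gene 1.0 ST array. The sterol points run between -0.23 and 0.34, the fatty acid points of the 2 h arrays lie between -0.32 and -0.12, and the points of all genes stay within 0.02 of 0.

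Other genes of sterol and lipid handling were read for comparison, 66 in all, of which 54 were found and 43 tested on Gene 1.0 ST arrays. At 2 h over vector-ERt2 cells, limma called 0 of the 43 (10 lower and 3 higher at an unadjusted p under 0.05, against 7.23% and 6.90% of all genes). At 6 h over vector-ERt2 cells, 2 rose and 1 fell (background 2.58% and 3.20%). Erg28, whose yeast counterpart holds enzymes of sterol demethylation together, averaged 10.25 and 9.91 (log2 change 0.33 ± 0.07, limma adjusted p = 0.0217), and Rnf145, a ubiquitin ligase of the endoplasmic reticulum, averaged 9.14 and 8.76 (0.38 ± 0.08, limma adjusted p = 0.0209). Scarb1, the receptor for high-density lipoprotein, averaged 8.21 and 8.53 (log2 change -0.32 ± 0.07, limma adjusted p = 0.0204). At 6 h over 2 h the single call, against a background of 0.376% higher, was again Erg28 (log2 change 0.50 ± 0.07, limma adjusted p = 0.0176). In each of these genes the arrays of the groups compared did not overlap. At 6 h over vector-ERt2 cells, the Erg28 call was lost without Ikaros-ERt2 6 h replicate 1 or vector-ERt2 replicate 1 or 3, that of Rnf145 without Ikaros-ERt2 6 h replicate 2 or 3 or any vector-ERt2 array, and that of Scarb1 without Ikaros-ERt2 6 h replicate 1 or vector-ERt2 replicate 2 or 3. Over all alternatives their adjusted p reached 0.0908, 0.0932 and 0.0729. The Erg28 call at 6 h over 2 h was lost without Ikaros-ERt2 2 h replicate 1 or 3 or 6 h replicate 1, and its adjusted p reached 0.112.

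At 48 h, on 430 2.0 arrays, the members furthest below 0 were Elovl6, Elovl7, Fads2 and Fads1, elongases and desaturases. In Ikaros cells over 159A cells limma called 6 of 32 members, all lower: Elovl7, Fads2, Fads1, Fasn and Scd2 of the fatty acid branch and Sqle of the sterol branch (background 8.47% of all 10916 genes lower); 0 rose (background 6.38% higher), and 2 were higher at an unadjusted p under 0.05 (background 15.5%). In all, 23 of 32 had a change below 0 (48.9% of all genes) with a median log2 change of -0.39, beside 0.00 for all genes. Over the alternative fits the members' median ran from -0.63, without Ikaros 48 h replicate 1, to -0.29, with arrays centred on their median. At an unadjusted p under 0.05, 15 of 32 were lower (background 18.2%). For 19 of 32 both Ikaros arrays lay below both 159A arrays (30.0% of all genes) and for 5 of 32 above (27.7%). In the probe set that stood for each gene, no group of any member lay near the floor of this array type. Other probe sets of some members did, those of Lss and Sc5d among them.

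**Figure D4:**
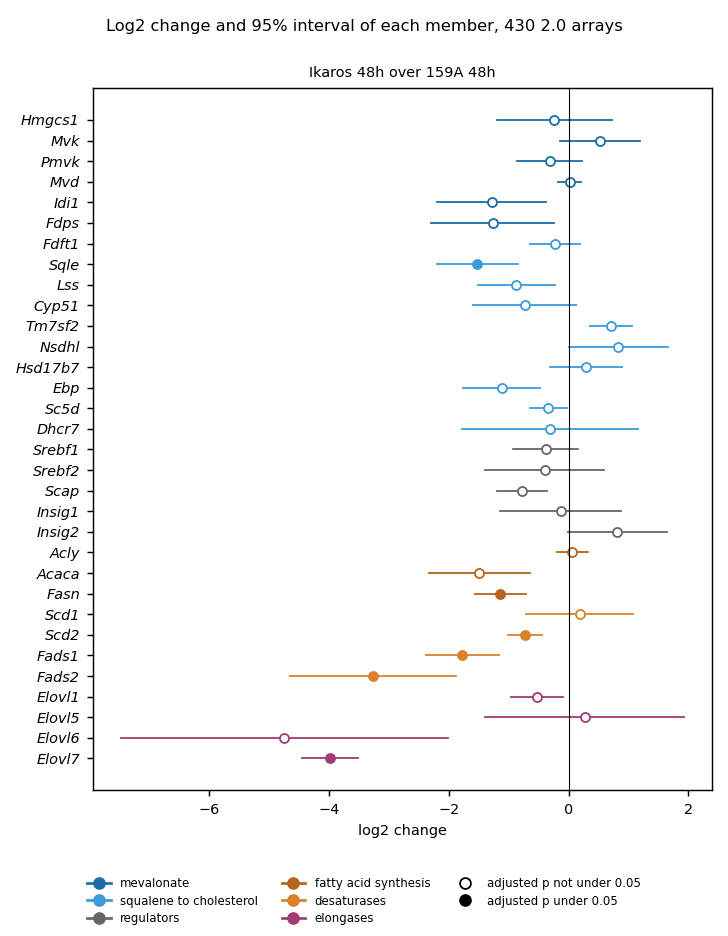
Log2 change (horizontal axis) of each of the 32 members at 48 h in Ikaros cells over 159A cells on 430 2.0 arrays, with 95% intervals; members run down the page by role and filled points are called. All 6 filled points lie below 0, and 5 of them belong to palmitate synthesis, desaturases or elongases.

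Elovl7 read 6.22 and 5.91 in Ikaros cells, against 10.04 and 10.05 in 159A cells, and was 15.8-fold lower (log2 change -3.98 ± 0.14, limma adjusted p = 0.0180). All 6 of its probe sets were below 0, with changes of -6.21 to -2.25, and 4 were called when every probe set was tested. The probe set at -6.21 averaged 3.22 in Ikaros cells, just above the floor range, which ends at 3.19. Elovl6 had the lowest change of any member and was not called: it read 6.07 and 7.99, against 11.61 and 11.94 (log2 change -4.75 ± 0.83, limma adjusted p = 0.0657). Its 2 Ikaros arrays differed by more than those of any called member, and its 3 probe sets had changes of -5.87 to -2.30. Elovl1 had a log2 change of -0.53 and Elovl5 of 0.27.

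Fads2 read 5.64 and 5.79 in Ikaros cells, against 9.47 and 8.50 in 159A cells (9.62-fold lower, log2 change -3.27 ± 0.42, limma adjusted p = 0.0433), and its 3 probe sets lay between -3.27 and -3.06. Fads1, which acts after Fads2 in making polyunsaturated fatty acids, read 9.72 and 9.37, against 11.44 and 11.20 (3.43-fold lower, log2 change -1.78 ± 0.18, limma adjusted p = 0.0347). Scd2 read 14.22 and 14.17, against 15.00 and 14.85 (1.66-fold lower, log2 change -0.73 ± 0.09, limma adjusted p = 0.0390). In these 3 genes the Ikaros arrays lay below the 159A arrays. Scd1 was not called, and its 2 probe sets had changes of 0.18 and -0.87.

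Fasn read 10.55 and 10.51 in Ikaros cells, against 11.81 and 11.53 in 159A cells (2.21-fold lower, log2 change -1.15 ± 0.13, limma adjusted p = 0.0373). Acaca had a larger change that was not called (log2 change -1.49 ± 0.26, limma adjusted p = 0.0647), and Acly had a change of 0.07. Over the 11 fatty acid genes, the median difference from the 159A mean was -1.12 and -1.17 on the 2 Ikaros arrays. For the 16 sterol enzymes it was -0.36 on each.

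On the sterol side at 48 h, Sqle, the squalene epoxidase, read 9.97 and 9.65 in Ikaros cells, against 11.51 and 11.17 in 159A cells (2.89-fold lower, log2 change -1.53 ± 0.20, limma adjusted p = 0.0459). Of the 6 mevalonate enzymes 0 were called by limma, and 2 were lower at an unadjusted p under 0.05. These were Idi1, the isomerase of isopentenyl diphosphate, with 10.56 and 11.20, against 12.13 and 12.20 (log2 change -1.29, limma adjusted p = 0.0872), and Fdps, farnesyl diphosphate synthase, with 7.60 and 8.12, against 8.87 and 9.38 (log2 change -1.27, limma adjusted p = 0.109). Hmgcs1 read 13.28 and 13.84, against 13.61 and 13.99 (log2 change -0.24, limma adjusted p = 0.632), and its 5 probe sets had changes of -0.24 to 0.18. Sterol enzymes above 0 included Tm7sf2, a sterol reductase (log2 change 0.71, limma adjusted p = 0.0522), and Nsdhl, an enzyme of sterol demethylation (0.83, limma adjusted p = 0.148).

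The regulators had 0 calls by limma at 48 h and 1 unadjusted p under 0.05, that of Scap. Scap read 11.95 and 11.71 in Ikaros cells, against 12.67 and 12.55 in 159A cells (log2 change -0.77 ± 0.13, limma adjusted p = 0.0608). Insig2 lay the other way, with 10.99 and 10.42, against 9.93 and 9.85 (log2 change 0.82 ± 0.25, limma adjusted p = 0.153), and all 3 of its probe sets were above 0. Srebf1, Srebf2 and Insig1 had log2 changes of -0.38, -0.40 and -0.13. Of the 21 members with several tested probe sets, 7 had them on both sides of 0 and 14 did not. The 14 include Lss, of which a dim probe set read 2.74 in both groups.

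**Figure D5:**
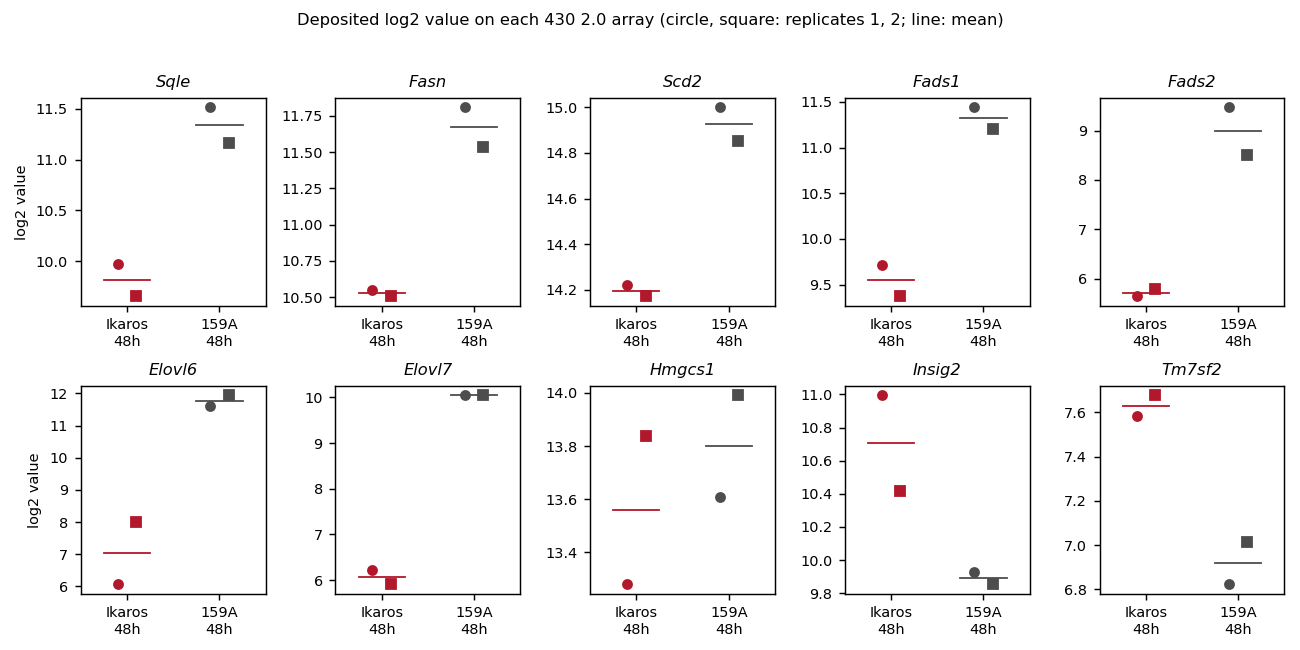
Deposited log2 signal (vertical axis, its own range for each gene) of 10 members on the 4 arrays of the 430 2.0 type; a point is 1 array and a line the mean of 2. Ikaros and 159A arrays stand apart for Sqle, Fasn, Scd2, Fads1, Fads2, Elovl6 and Elovl7 (lower in Ikaros cells) and for Insig2 and Tm7sf2 (higher in Ikaros cells), and overlap for Hmgcs1.

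The groups at 48 h held 2 arrays each, so a fit without 1 array leaves a group of 1 and cannot test whether the 6 calls hold. With no filter on low genes 0 of the 6 were called, and 185 genes in all, against 1621 in the main fit. The directions of the 6 were the same in each of those fits, and Elovl7's log2 change without 1 array was -4.14 to -3.83. Elovl7 was called in both designs and on opposite sides, higher at 6 h over vector-ERt2 cells and lower at 48 h over 159A cells. Elovl6 had changes of -0.39, -0.80 and -4.75 at 2 h, 6 h and 48 h. The designs differ in array type, construct, control and time, so these values are given side by side and their difference was not tested.

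Among the 66 related genes, 55 were found on 430 2.0 arrays and 49 tested, and 5 rose (background 6.38%) and 2 fell (background 8.47%) at 48 h. Cpt1a, which admits fatty acids to mitochondria for oxidation, averaged 12.55 in Ikaros cells and 10.57 in 159A cells (log2 change 1.98 ± 0.27, limma adjusted p = 0.0460). Gpam, an acyltransferase that starts glycerolipid synthesis, averaged 14.11 and 12.10 (log2 change 2.01 ± 0.07, limma adjusted p = 0.0180). Also higher were Mylip, a ubiquitin ligase of lipoprotein receptors (log2 change 1.62), Syvn1, a ubiquitin ligase of the endoplasmic reticulum (1.54), and Npc2, which carries cholesterol out of lysosomes (0.68). Lower were Lrp8, a receptor for apolipoprotein E (log2 change -3.33), and Abca1, an exporter of cholesterol, which was near the floor in Ikaros cells and at least 2.29-fold lower there. Lrp8 was also dim in Ikaros cells, at 3.65 and 2.95, the latter within 1 log2 unit of the floor. The median log2 change of the 49 was -0.07. All 7 called genes kept their direction without any 1 of the 4 arrays, but such fits leave a group of 1 array and cannot test the calls.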

How the data were processed

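The deposited values are log2 signals, 1 per probe set, on 4 arrays of the 430 2.0 type and 9 of the Gene 1.0 ST type, which were normalized apart and never compared in level. Per the submitters' processing notes, GCRMA, RMA, affy and limma were used; the notes give neither versions nor the role of each. On 430 2.0 arrays 36.7% of values lay within 0.01 of the lowest (the floor), and a group within 1 log2 unit of it gives only a bound. Names came from the platform annotation, and probe sets of several genes were left out. Genes in the lowest 40% by mean were not tested, which left 11963 (Gene 1.0 ST) and 10916 (430 2.0). Group means were fitted per array type with limma 3.58.1 in R 4.3.3 (lmFit, eBayes, two-sided). In a check on simulated data, with each gene's spread taken from these arrays, the 48 h fit found fewer of the added changes than the 6 h fit. It does not measure recovery in the real data. With 2 arrays a group at 48 h, a member not called there may still differ. Sample titles gave the groups and call the arrays biological replicates without naming cultures, so the p-values reflect the spread among these few arrays, which may be technical. Gene 1.0 ST arrays correlated at 0.989 to 0.994 within groups and at 0.989 to 0.993 between groups, much the same range. On 430 2.0 arrays the ranges were 0.987 to 0.995 within and 0.967 to 0.973 between groups. Deviations of same-numbered arrays correlated at 0.12 to 0.23 between Ikaros-ERt2 2 h and vector-ERt2, at -0.10 to 0.11 between Ikaros-ERt2 6 h and vector-ERt2 and at -0.26 to 0.24 between 6 h and 2 h. All 3 pairs thus passed 0.1 at 2 h over vector-ERt2 alone, where a replicate block also called 1 member, Scd1 (263 genes in all, against 223). The labels give no pairing for 430 2.0 (0.57, 2 groups of 2), and the fit reported has no block.

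Values per array are given for every called member and, per role group without a call, for the 2 members of smallest p; others are added. Members, lists and alternatives were chosen with earlier results of these data known. Sequences are from RefSeq; planned comparisons of proteins were not run. Alternatives were other filters, centring, quantile normalization, eBayes with trend and robust, a replicate block, the mean of all probe sets, every probe set, 2 groups alone and leaving out each array.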

Additional observations from a re-analysis of the deposited data

Results flagged for a closer look

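Beyond the called changes against vector-ERt2 cells, 3 genes differed between the 2 h and the 6 h effects of the Ikaros-ERt2 line by a test of that difference, which is the contrast of 6 h over 2 h. The effect on Hmgcs1 was 0.68 log2 units higher at 6 h than at 2 h (limma adjusted p = 0.0282), from changes of 0.46 at 6 h and -0.22 at 2 h. For Dhcr7 the difference was 0.47 (limma adjusted p = 0.0294), with changes of 0.22 at 6 h and -0.25 at 2 h. For Erg28 it was 0.50 (limma adjusted p = 0.0176), with changes of 0.33 at 6 h and -0.16 at 2 h. Each gene was higher on 3 of 3 arrays at 6 h than on any array at 2 h. With vector-ERt2 cells measured at 6 h only, a change with time in culture cannot be told apart from these differences.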

How the results depend on the processing

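No change called in the main fit had the other sign under any alternative. No member called only in an alternative had the other sign there, while changes not called could move across 0. Over all fits 26 to 29 of 32 members were below 0 at 2 h over vector-ERt2 cells, 19 to 23 above 0 at 6 h, 28 to 29 above 0 at 6 h over 2 h and 21 to 26 below 0 at 48 h. The counts of calls moved more. At 2 h the 1 called member became 0 with no filter or with only the 2 groups compared in the fit, 5 with the lowest 60% not tested, 2 with arrays centred on their median and 3 with quantile normalization again or eBayes with trend and robust; leaving out 1 array gave 0 to 2. Over all genes the 223 calls at 2 h became 141 with no filter, 199 with only the 2 groups and 276 with the 60% filter. Without 1 array they became 82 to 269. At 6 h the 3 became 1 (Elovl6) with no filter, with only the 2 groups or with the replicate block, and 1 to 2 without 1 array. The 692 calls over all genes there became 537, 480 and 673 in those 3 fits, and 335 to 714 without 1 array. At 6 h over 2 h the 2 became 1 with no filter (59 genes in all, against 108), 5 with the 60% filter (140) and 4 with centring or quantile normalization. They became 0 with only the 2 groups, where no gene of the array was called. Without 1 array they became 0 to 1, with 9 to 149 genes called in all. At 48 h the 6 became 0 with no filter (185 genes in all, against 1621) and 10 with the 60% filter (1769 in all). Centring gave 8 calls (2437 in all) and quantile normalization 9 (1948 in all). The replicate block, which leaves 1 residual degree of freedom at 48 h, called 0 members and no gene of the array. Leaving out 1 array at 48 h leaves a group of 1, so no calls are counted from those fits. Of the related genes, 1 was called at 2 h with quantile normalization and 0 without any 1 array. At 6 h 1 was called with only the 2 groups, and 0 to 4 without 1 array. At 6 h over 2 h 0 were called with only the 2 groups, as over all genes, and 0 to 2 without 1 array. At 48 h the 7 became 2 with no filter, 11 with the 60% filter, 14 with centring and 13 with quantile normalization. The replicate block called 0 of them, as over all genes. The replicate block called 1, 1, 3 and 0 members in the 4 comparisons; Hmgcs1 and Elovl7 at 6 h were the early calls it ended. Centring raised all changes at 48 h by 0.105, so that 50.7% of 2437 calls over all genes were higher against 42.9%; at 6 h over 2 h centring made 27.8% of 158 calls higher, against 41.7% of 108. The cause of these moves was not tested. Of the named genes, Elovl6 at 6 h was called in all 17 alternatives, which leave out the fit of every probe set. Scd1 at 2 h was called in 8 and Elovl7 at 6 h in 6. Hmgcs1 was called in 8 at 6 h, and Hmgcs1 and Dhcr7 each in 8 at 6 h over 2 h. At 48 h, in 7 alternatives with all 4 arrays, Elovl7, Fads1, Fads2, Fasn and Sqle were called in 5 and Scd2 in 2. With every probe set tested, Sqle was not called at 48 h (limma adjusted p = 0.0618).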
